A study of Mus musculus with 6 samples.

Results

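Acetyl-CoA synthetases, ATP citrate lyase and enzymes of the TCA cycle were followed in splenic B cells before and after stimulation of TLR9. The group held 9 genes, Acss1, Acss2, Acly, Cs, Idh3a, Ogdh, Suclg1, Fh1 and Mdh2, of 23420 in the table, and all 9 were found by symbol. The genes were chosen by name with their values in these samples known, and the values that chose them are the differences between CpG-stimulated and unstimulated cells. Their fold changes are therefore given as a description, without a test. The 6 samples came from 3 WT BALB/c mice aged 7 to 11 weeks, with 3 samples per group, numbered 1 to 3 in each. Bead-purified B cells, 10 M per culture at 10 M per ml, were kept for 4 hours with 10 μg/ml of CpG ODN 1826, a synthetic DNA that activates TLR9, or without it. No allele was altered and no other agent was given in either group. Samples 1 and 2 of each group were from females and sample 3 was from a male, so sex cannot be told apart from sample number.

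The TCA cycle oxidizes the acetyl group of acetyl-CoA in mitochondria and passes its electrons to the respiratory chain. Acetyl-CoA enters from pyruvate, from fatty acids or from acetate, and citrate that leaves mitochondria is split again into acetyl-CoA for lipid synthesis and protein acetylation in the cytosol and nucleus. Activated B cells are known for increased growth and membrane synthesis, which draw on the same carbon.

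The deposited values were log2 CPM (reads of a gene scaled to a common total), quantile normalized, in which a gene without reads had a value of -5.15 and 10 reads corresponded to -0.76. After quantile normalization the samples share 1 distribution of values, so changes are relative to the other transcripts and a change in total RNA is not visible. All 6 B cell markers were above the level of 10 reads in every sample, and none of 7 T cell markers was. The summed level of the B cell markers was 11.1 to 11.3 log2 CPM with CpG and 11.8 to 12.0 without. Of the other cells a spleen could supply, 1 of 4 NK cell markers (Prf1), 2 of 6 myeloid markers, 4 of 6 red cell markers and 4 of 4 plasma cell markers were above that level in every sample. Summed levels of the plasma cell markers (8.87 to 9.23 with CpG, 9.69 to 10.2 without) and of the NK cell markers (0.56 to 1.37 with, 1.58 to 1.78 without) also did not overlap between the groups, whereas those of the myeloid markers (3.32 to 3.96 and 2.88 to 3.85) and T cell markers (-0.83 to -0.45 and -1.21 to -0.44) did. The part of these differences in the results was not tested. All 4 of these red cell markers were highest in replicate 2 of both groups, and their summed level ranged from 8.58 to 12.3 log2 CPM with CpG and from 8.66 to 11.9 without. Of the 9 enzyme genes, 1 was highest in replicate 2 of both groups. It was Acss2, which had a low level there (-0.63 log2 CPM with CpG and -0.09 without). In bulk samples, fewer cells of a type and less RNA per cell cannot be told apart.

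By limma with Benjamini-Hochberg adjustment over 11233 genes with enough reads, 37.6% of all genes were called higher and 36.7% lower with CpG at an FDR under 0.05, or 74.3% in either direction. Of the 9 enzymes, 3 were called higher, 3 lower and 3 were not called. The groups did not overlap in 7 of the 9, against 77.7% of all tested genes. The median log2 fold change (log2FC) of the 9 was -0.04, beside 0.0033 over all tested genes. As the enzymes were chosen on this comparison, nothing is read from these counts. The median SD of these enzymes between replicates was 0.068 in CpG-stimulated and 0.074 in unstimulated samples, beside 0.129 and 0.106 over all tested genes, but Acss2 (1.13), Acss1 (0.223) and Acly (0.171) varied more than the median gene with CpG.

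**Figure D1:**
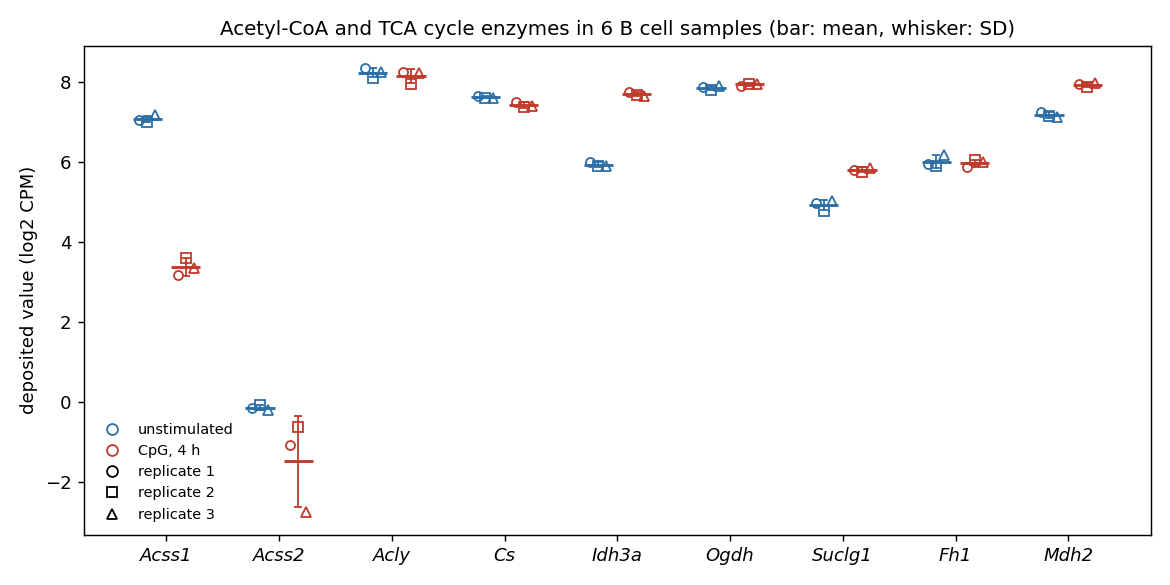
Values of the 9 enzymes in log2 CPM (y axis) in 3 unstimulated (blue) and 3 CpG-stimulated (red) samples, with symbols for the replicate number, a bar for the mean and a whisker for the SD. Acss1 lies far lower with CpG, Idh3a, Suclg1 and Mdh2 lie higher, and the values of Acly and Fh1 overlap between the groups.

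Acss1 encodes the mitochondrial acetyl-CoA synthetase, which joins acetate to CoA. It lies at chr2:150618105-150668500 on the minus strand (GRCm38). Its values were 7.04, 6.99 and 7.16 log2 CPM in unstimulated samples 1 to 3 and 3.15, 3.60 and 3.35 in CpG-stimulated samples 1 to 3. All unstimulated values were far above all stimulated ones. Acss1 was thus 12.9-fold lower with CpG (log2FC -3.69, SE 0.11), and its log2FC ranked 27 from the lowest among the 11233 tested genes. The values correspond to 2258 to 2533 reads in unstimulated and 158 to 215 reads in stimulated samples at the common library size, so the lower level was still well above detection. A stretch of 73 exonic bases of Acss1 is shared with E130215H24Rik on the opposite strand, whose values were -0.51, -0.08 and 0.40 in unstimulated samples and -5.12, -5.16 and -5.17 with CpG, the level of a gene without reads. Whether the counting used the strand is not given in the sources used here, so reads within the shared stretch cannot be assigned to 1 of these genes.

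Acss2, the synthetase that uses acetate in the cytosol and nucleus (chr2:155517948-155585724, plus strand), was scarcely expressed in either group. Its values were -0.17, -0.09 and -0.20 log2 CPM in unstimulated samples and -1.09, -0.63 and -2.77 in stimulated samples. They correspond to 14.9 to 16.2 reads per unstimulated sample and to 7.87, 11.0 and 2.10 reads with CpG. The last was below the limit of 3 reads taken for detection. These read numbers take the value of no reads as equal in every sample. They are uncertain, since the deposited values shift by replicate number. The groups did not overlap and the log2FC was -1.34 (SE 0.55), the largest error among the 9. Without CpG replicate 3 the difference was -0.70, and Acss2 and Cs were then no longer called. Acss2 passed the filter on low values through its unstimulated samples and 1 stimulated sample. Acss2 shares 165 exonic bases with Gss and Acss2os on the opposite strand. Of the runs of 75 bases in its transcripts, 4.55% were also found in transcripts of other genes, on the opposite strand. These genes were Ggt7 (3.2%), Acss2os (1.0%) and Gss (0.3%). The low values of Acss2 are uncertain for this reason too. The level of Ggt7 is not given here. Gss, which encodes glutathione synthetase, was higher with CpG (log2FC 0.91, limma adjusted p = 5.57e-05).

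Acly encodes ATP citrate lyase, which makes cytosolic acetyl-CoA from exported citrate (chr11:100476353-100528000, minus strand). Its values were 8.33, 8.10 and 8.23 log2 CPM without and 8.25, 7.94 and 8.21 with CpG. The groups overlapped. The log2FC was -0.09 (SE 0.09), with a 95% interval from -0.30 to 0.12.

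Cs encodes citrate synthase, which brings acetyl-CoA into the cycle (chr10:128337734-128362479, plus strand). Its values were 7.63, 7.60 and 7.59 log2 CPM in unstimulated and 7.49, 7.37 and 7.39 in stimulated samples. Every stimulated value was below every unstimulated one, but the difference was small (log2FC -0.19, SE 0.06). A share of 0.806% of the runs of 75 bases in Cs transcripts is also found in Csl, its near copy.

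Idh3a encodes the catalytic alpha subunit of the NAD-dependent isocitrate dehydrogenase (chr9:54586334-54604661, plus strand). Its values were 5.99, 5.89 and 5.88 log2 CPM without CpG and 7.74, 7.67 and 7.65 with it. The groups were far apart and the replicates within each nearly equal. Idh3a was 3.41-fold higher (log2FC 1.77, SE 0.06), the highest difference of the 9, and above that of 95.4% of tested genes.

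Ogdh encodes the E1 subunit of the oxoglutarate dehydrogenase complex (chr11:6291633-6356642, plus strand). Its values were 7.87, 7.78 and 7.88 log2 CPM in unstimulated and 7.90, 7.95 and 7.94 in stimulated samples. The groups touched closely without overlap. The log2FC of 0.08 (SE 0.06) was not called.

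Suclg1, the alpha subunit shared by both succinyl-CoA ligases (chr6:73248382-73276911, plus strand), had values of 4.95, 4.78 and 5.02 log2 CPM without and 5.80, 5.74 and 5.85 with CpG. All stimulated values were above all unstimulated ones, and Suclg1 was 1.84-fold higher (log2FC 0.88, SE 0.08).

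Fh1 encodes fumarase, which hydrates fumarate to malate (chr1:175600374-175625635, minus strand). Its values were 5.93, 5.89 and 6.18 log2 CPM in unstimulated and 5.86, 6.04 and 5.98 in stimulated samples. The groups overlapped, and the same-numbered differences disagreed in sign in this gene only among the 9, at -0.07, 0.15 and -0.19. The log2FC was -0.04 (SE 0.09), with a 95% interval from -0.24 to 0.16.

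Mdh2 encodes the mitochondrial malate dehydrogenase, which closes the cycle by making oxaloacetate (chr5:135778480-135790398, plus strand). Its values were 7.25, 7.13 and 7.11 log2 CPM without and 7.95, 7.86 and 7.96 with CpG. No value of one group reached the other, and Mdh2 was 1.70-fold higher (log2FC 0.76, SE 0.06).

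Levels of different genes were compared per length, as log2 CPM per kb of exon. In unstimulated cells the order of mean levels was Mdh2 at 6.62, Cs at 6.06, Acly at 6.01, Ogdh at 5.69, Acss1 at 5.21, Fh1 at 4.60, Idh3a at 4.55, Suclg1 at 4.31 and Acss2 at -2.09. Cs and Acly overlapped in their replicates, as did Fh1 and Idh3a, and these neighbours were not separated. In stimulated cells the order was Mdh2 at 7.38, Idh3a at 6.32, Acly at 5.93, Cs at 5.87, Ogdh at 5.77, Suclg1 at 5.19, Fh1 at 4.56, Acss1 at 1.51 and Acss2 at -3.43. Idh3a thus stood in the seventh place without CpG and in the second with it, and Acss1 in the fifth and the eighth. Acly overlapped with Cs and Ogdh after stimulation. When the longest coding transcript was used as the length, Acly came before Cs in unstimulated cells, and Ogdh came before Cs, with overlapping replicates, in stimulated cells.

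The other enzymes and subunits of the cycle place these values among their partners. Of 11 such genes, all were tested, 9 rose, 1 fell and 1 was not called, with a median log2FC of 0.23 beside 0.0033 over all tested genes. The counts of this and the further lists stand beside 37.6% called higher and 36.7% called lower over all tested genes. Both partners of Idh3a in its complex rose by far less than the difference in Idh3a: Idh3b, the beta subunit, by a log2FC of 0.17 (limma adjusted p = 0.0214) and Idh3g, the gamma subunit, by 0.23 (limma adjusted p = 0.00934). The log2 ratio of Idh3a to Idh3b was -0.62, -0.77 and -0.68 in unstimulated samples 1 to 3 and 0.96, 0.86 and 0.89 in stimulated samples, a difference of 1.59, and that of Idh3a to Idh3g differed by 1.54. Idh2, the NADP-dependent mitochondrial enzyme, rose by 0.40 (limma adjusted p = 0.0205).

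The subunits of succinyl-CoA ligase were nearer to each other. Suclg2, the GTP-specific beta subunit, rose by a log2FC of 0.45 (limma adjusted p = 2.2e-04), and Sucla2, the ATP-specific one, by 0.52 (limma adjusted p = 6.9e-05). The log2 ratio of Suclg1 to Sucla2 was -0.34, -0.43 and -0.27 without and 0.00, 0.02 and 0.01 with CpG. In the oxoglutarate dehydrogenase complex, Dlst, its E2 subunit, rose by 0.19 (limma adjusted p = 0.0342), and Dld, the E3 subunit that it has in common with pyruvate dehydrogenase, by 0.16 (limma adjusted p = 0.0295).

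Succinate dehydrogenase, the link to the respiratory chain, was mixed. Sdha, its flavoprotein, fell by 0.52 on the log2 scale (limma adjusted p = 5.1e-05), whereas Sdhb, the iron-sulfur subunit, rose by 0.53 (limma adjusted p = 6.57e-05) and the membrane anchor Sdhc by 0.49 (limma adjusted p = 3.12e-04). The other anchor, Sdhd, had a log2FC of 0.04 (limma adjusted p = 0.598). Leaving out 1 sample ended the call of Idh3b (unstimulated 3), Idh3g (CpG 3), Idh2 (CpG 1, CpG 3 or unstimulated 2), Dlst (CpG 1, CpG 2 or unstimulated 3) and Dld (CpG 3 or any unstimulated sample), with limma adjusted p up to 0.146.

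**Figure D2:**
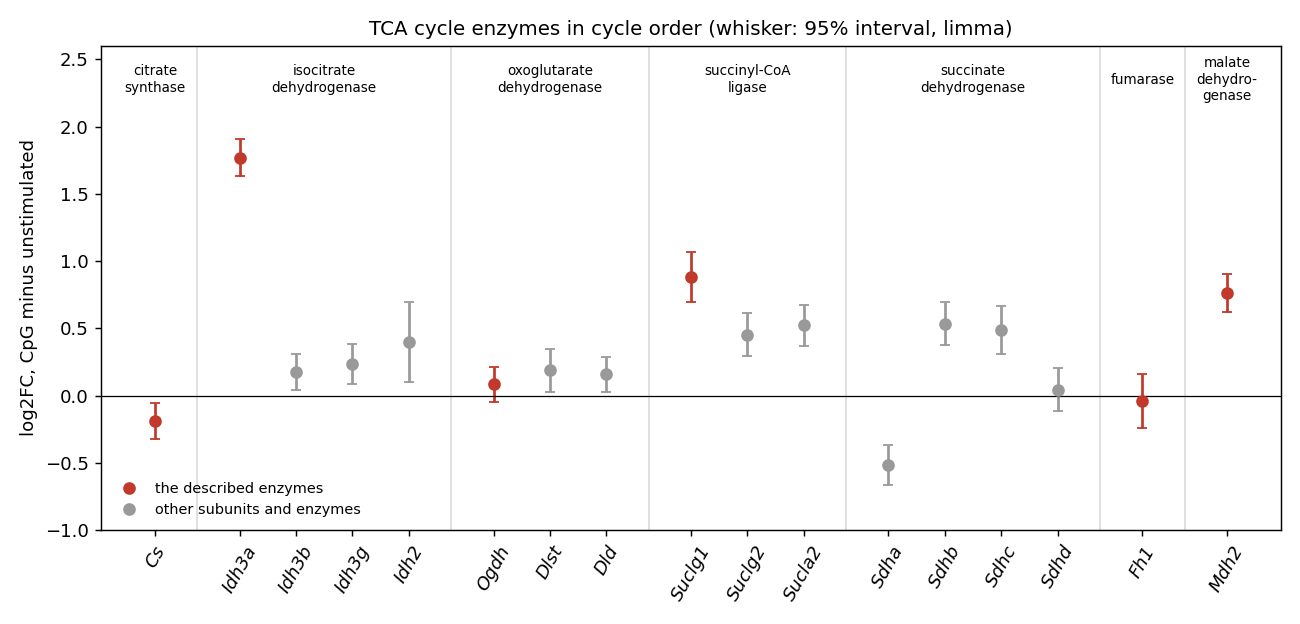
Log2FC between CpG-stimulated and unstimulated samples (y axis) for enzymes of the TCA cycle in the order of the cycle from left to right, with 95% intervals from limma as whiskers, in red for the enzymes described above and in grey for the other 11. Idh3a at 1.77 lies far above its partners Idh3b and Idh3g, and Sdha at -0.52 lies below the other subunits of its complex.

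Mitochondrial and cytosolic forms of the same enzyme were set side by side, in pairs chosen after their values were seen. Mdh2 was higher with CpG, whereas Mdh1, the cytosolic malate dehydrogenase, fell from 7.88, 7.85 and 7.73 to 6.61, 6.76 and 6.53 log2 CPM (log2FC -1.19 from the means of 7.82 and 6.64, limma adjusted p = 3.13e-07). The log2 ratio of Mdh2 to Mdh1 was -0.63, -0.72 and -0.63 without and 1.33, 1.10 and 1.43 with CpG, and did not overlap. Of the transaminases that work with malate dehydrogenases in the malate-aspartate shuttle, Got2 in mitochondria rose by 0.42 (limma adjusted p = 0.0028) and Got1 in the cytosol fell from a mean of 8.01 to 6.91 log2 CPM (limma adjusted p = 7.28e-08). Idh1, the cytosolic isocitrate dehydrogenase, fell by 0.98 (limma adjusted p = 0.00146) whereas Idh2 rose. The acetyl-CoA synthetases did not share this pattern, as both the mitochondrial Acss1 and the cytosolic Acss2 were lower. Nor did the acetyl-CoA acetyltransferases, since mitochondrial Acat1 had a log2FC of -0.02 (limma adjusted p = 0.863) and cytosolic Acat2 rose by 1.10 (limma adjusted p = 5.92e-05). With 3 samples against 3, an exact two-sided permutation test of a ratio cannot go below p = 0.10, and the ratios were not tested.

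**Figure D3:**
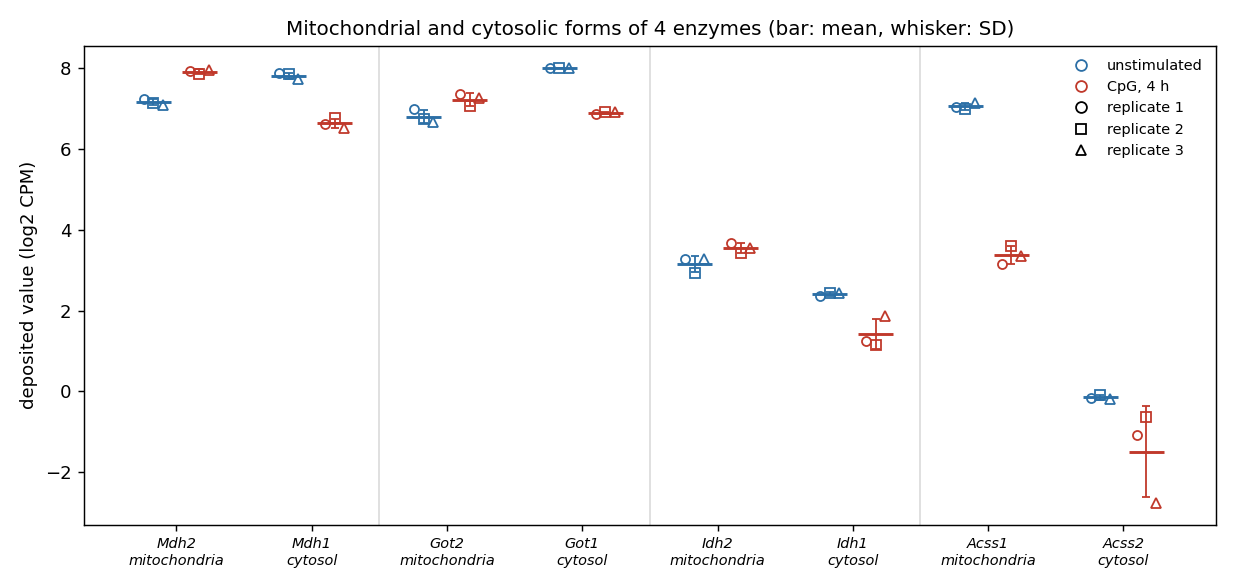
Values in log2 CPM (y axis) of 4 enzymes with a mitochondrial gene (left of each pair) and a cytosolic gene (right), in unstimulated (blue) and CpG-stimulated (red) samples, with a bar for the mean and a whisker for the SD. Mdh2, Got2 and Idh2 lie higher with CpG and Mdh1, Got1 and Idh1 lower, whereas Acss1 and Acss2 both lie lower.

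Supply of acetyl-CoA was described through 4 further lists. On the path from pyruvate, 12 of 13 genes were tested, 7 rose and 3 fell (median log2FC 0.26). Pdk2, a kinase that inactivates pyruvate dehydrogenase, fell from a mean of 2.66 to -0.74 log2 CPM, the level of 10 reads (log2FC -3.40, or -2.18 on the log2(CPM + 1) scale, limma adjusted p = 4.49e-06), and Pdpr, the regulatory subunit of the opposing phosphatase, fell by 1.31 (limma adjusted p = 6.83e-07). The catalytic subunits of that phosphatase, Pdp1 and Pdp2, rose from means of 4.26 to 5.26 (limma adjusted p = 3.51e-06) and of 4.21 to 5.07 log2 CPM (limma adjusted p = 1.21e-04). The kinases Pdk1 and Pdk3 had higher levels than Pdk2 in both groups. Pdk1 had means of 4.88 without and 4.85 log2 CPM with CpG (limma adjusted p = 0.79). Pdk3 fell from a mean of 5.075 to 4.31 log2 CPM (limma adjusted p = 2.6e-05). Pdk4, a further kinase of this kind, did not pass the filter on low values.

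Of the fatty acid oxidation genes, 17 of 18 were tested, 3 rose and 11 fell (median log2FC -0.52). Cpt1a, which commits fatty acids to mitochondrial import, fell by 3.11 (limma adjusted p = 1.06e-08) and Hadh, a dehydrogenase of the beta-oxidation spiral, fell by 2.37 (limma adjusted p = 1.92e-06). Etfa and Etfb, which carry the electrons, rose by 0.49 (limma adjusted p = 5.76e-04) and 0.29 (limma adjusted p = 0.025). The 3 higher calls became 1 without CpG replicate 3 or without unstimulated replicate 2.

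Of the genes for acetate entry and the sirtuins, which deacetylate proteins, 6 of 8 were tested, 1 rose and 4 fell (median log2FC -0.72). Slc16a1, a monocarboxylate transporter, rose by 1.78 (limma adjusted p = 2.31e-07), whereas Slc16a7, a related transporter, fell from 0.26, 0.19 and -0.09 to -3.41, -3.28 and -1.54 log2 CPM (limma adjusted p = 0.00111). All stimulated values of Slc16a7 were below the level of 10 reads, and 2 of them below that of 3 reads, so it was tested through its unstimulated samples alone. Its difference was -2.86 on the deposited scale and -0.83 on the log2(CPM + 1) scale. Sirt1, a nuclear deacetylase that acts on Acss2 protein among others, fell by 0.78 (limma adjusted p = 2.26e-06), and Sirt3, its mitochondrial relative, fell by 0.71 (limma adjusted p = 0.00754). Sirt3 was added after its value was seen. In the synthesis of CoA itself, 8 of 8 genes were tested, 3 rose and 3 fell (median log2FC 0.0035). The mitochondrial CoA transporter Slc25a42 rose by 0.81 (limma adjusted p = 0.00604) and the pantothenate kinase Pank3 by 0.50 (limma adjusted p = 7.07e-05), and Ppcdc, a decarboxylase of the pathway, fell by 1.07 (limma adjusted p = 2.19e-05) and the kinase Pank1 fell by 0.95, or by 0.56 on the log2(CPM + 1) scale (limma adjusted p = 0.00872).

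The list named for acetyl-CoA use in the cytosol had the highest median log2FC of the 9 lists, 1.16. It also holds genes of other steps, such as Aacs and Mlycd, so it is not a list of users of acetyl-CoA alone. Of its genes, 8 of 9 were tested, 6 rose and 1 fell. Acacb, an acetyl-CoA carboxylase, rose by 1.84, or by 1.18 on the log2(CPM + 1) scale (limma adjusted p = 6.82e-05). Its level was low, with means of -0.06 without and 1.78 log2 CPM with CpG. The more abundant Acaca, Fasn and Hmgcs1 rose by 0.86 (limma adjusted p = 5.5e-04), 1.23 (limma adjusted p = 2.99e-05) and 1.22 (limma adjusted p = 4.4e-07). Aacs, which makes acetoacetyl-CoA, rose by 1.24 (limma adjusted p = 4.85e-06), and Mlycd, which breaks down malonyl-CoA, fell by 0.72 (limma adjusted p = 9.64e-05). Acly itself had a log2FC of -0.09. Slc25a1, the mitochondrial citrate carrier that supplies it, rose from 5.88, 5.72 and 5.71 to 7.44, 7.25 and 7.20 log2 CPM (log2FC 1.53, limma adjusted p = 1.11e-07).

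Slc25a1 belongs to the list for anaplerosis and metabolite exchange, in which 16 of 19 genes were tested, 3 rose, 5 fell and 8 were not called (median log2FC -0.07). Slc25a13, an aspartate-glutamate carrier, rose by 1.48 (limma adjusted p = 8.4e-05), and the 2 most negative calls were those of Mdh1 and Got1. Slc25a12, the other aspartate-glutamate carrier, fell by 0.94 (limma adjusted p = 8.25e-06) and was added after its value was seen. The log2 ratio of Slc25a13 to Slc25a12 was -2.65, -3.08 and -2.71 without and -0.12, -0.66 and -0.40 with CpG.

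Lipoylation, which Ogdh's complex needs on its E2 subunit, and assembly of succinate dehydrogenase were covered by 7 genes, all tested, of which 3 rose and 1 fell (median log2FC 0.07). The lipoyltransferases Lipt2 and Lipt1 rose by 2.49 (limma adjusted p = 2.03e-07) and 2.09 (limma adjusted p = 5.95e-07), and the assembly factor Sdhaf1 fell by 0.46 (limma adjusted p = 0.00578). With replicate numbers as a block, or without CpG replicate 2, 2 genes of this list were called lower. Of 12 transcriptional regulators of such genes, all tested, 6 rose and 3 fell (median log2FC 0.18). Myc rose by 1.05 (limma adjusted p = 7.77e-06) and Gabpb1, a subunit of the ETS factor GABP, by 0.99 (limma adjusted p = 2.66e-07). Ppargc1a, a coactivator of mitochondrial genes, fell from a mean of 1.61 to -1.90 log2 CPM, with 2 of 3 stimulated samples below the level of 10 reads (limma adjusted p = 1.73e-04). Its difference was -3.52 on the deposited scale and -1.62 on the log2(CPM + 1) scale. Gabpb2 fell by 0.77 (limma adjusted p = 2.63e-05). Over the 9 lists, 97 of 105 genes were tested, of which 41 rose, 32 fell and 24 were not called. Over all tested genes 37.6% were called higher and 36.7% lower, so these totals alone set the lists little apart.

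**Figure D4:**
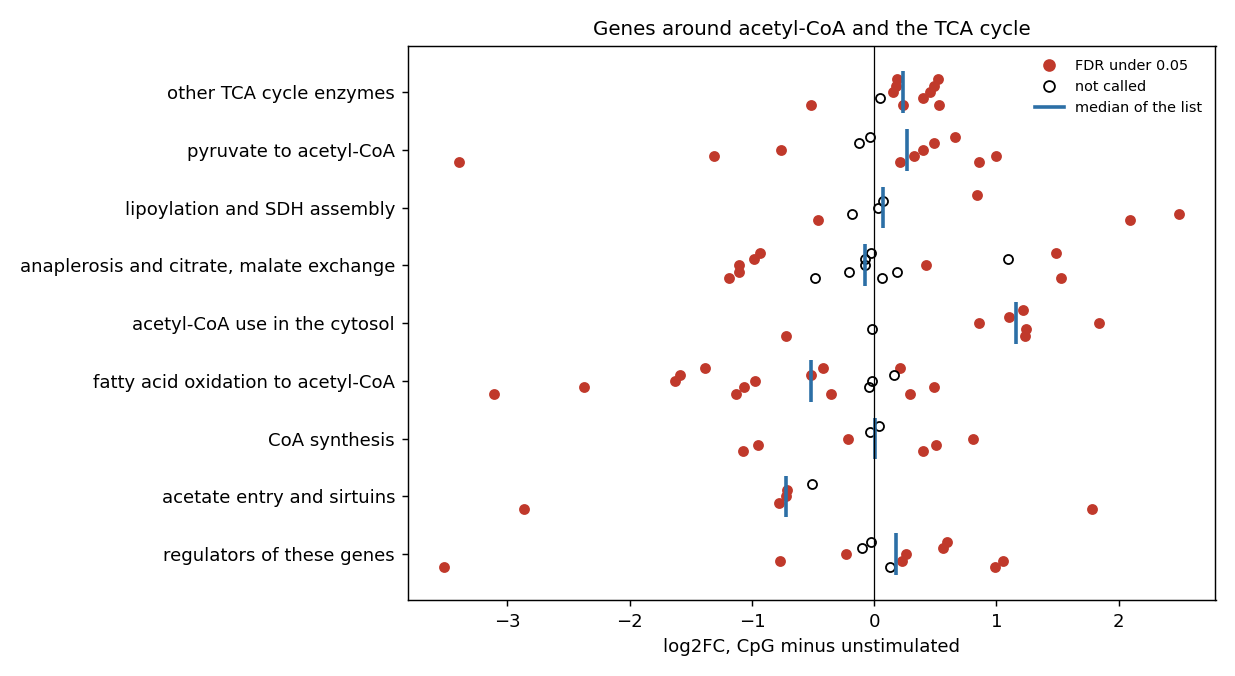
Log2FC between CpG-stimulated and unstimulated samples (x axis) of the tested genes in 9 lists around acetyl-CoA and the TCA cycle (y axis, with points spread for legibility), filled red at an FDR under 0.05 and open otherwise, with a blue line at each list's median. The median is highest for acetyl-CoA use in the cytosol, at 1.16, and lowest for acetate entry and sirtuins, at -0.72.

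RefSeq promoters (GRCm38.p6) from 250 bases before to 50 bases after a start were at hand for 8 of the 9 enzymes, all but Idh3a, and were searched on both strands for 5 motifs. CCAAT was found for 5 of the 8, Acss2, Acly, Cs, Ogdh and Fh1, and in 37.4% of all 32851 promoters and 38.0% of those of tested genes. The ETS motif CCGGAAG was found for Acss2 (8.86% of all promoters and 18.6% of those of tested genes). The NRF1 core GCATGC (7.93% and 10.2%), the E-box CACGTG (7.15% and 10.4%) and TCACNCC, part of the sterol response element (15.6% and 16.4%), were found for Ogdh, which had 6 start sites in the table against 1 for each of the others. None of the matches overlapped another. The windows of Acss1, Suclg1 and Mdh2, which differed between the groups by 0.76 or more on the log2 scale, held no match to the 5. Acss2, which also differed by more than that (log2FC -1.34), held CCAAT and the ETS motif. A match describes letters only. The sites of Cs and Fh1, members with a pair of CCAAT boxes close to 1 start, are shown with the ETS site of Acss2. Ogdh also had such a pair, at -92 and -60 bases, and another farther from a different start, at -242 and -197 bases. Neither is shown. The sites are read along the gene's strand with the motif in capitals. ATTGG is CCAAT on the other strand, and CTTCCGG is CCGGAAG.
Cs, chr10:128337599-128337627, plus strand: aatccgtacggtCCAATcctccccgcgat
Cs, chr10:128337660-128337688, plus strand: ttccattttgggCCAATggtcgaggccgg
Fh1, chr1:175625689-175625717, minus strand: ccattagttattATTGGccagtcatggtt
Fh1, chr1:175625638-175625666, minus strand: aagaggcgtttgATTGGttacgagcgtgg
Acss2, chr2:155517875-155517903, plus strand: cggctccacccCTTCCGGcaagacagctc

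For each enzyme, the 2 tested genes with the most similar pattern over the 6 samples were found by the Euclidean distance between values centred on each gene's mean. The closest match was Nop9 to Mdh2, at a distance of 0.0215, followed in that gene by Imp3 (0.0583). Idh3a lay close to Polr2f (0.0559) and Pwp1 (0.0567), and Acss1 to Ssh2 (0.152) and Fbxo32 (0.263). For Cs these were Ppme1 and Bcl2l11, for Acly Tmco4 and Mtmr9, for Ogdh Tmem87a and Gramd3, for Suclg1 Snx9 and Tmem167, and for Fh1 Gm16576 and Suds3, at distances from 0.0579 to 0.124. Acss2 had no near match, with Gm15708 at 0.734 and Pltp at 0.861.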

How the data were processed

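Values of 3 CpG-stimulated and 3 unstimulated WT BALB/c samples were used. Groups, replicate numbers, sex, age, dose and time were taken from the sample labels and the study's methods. TruSeq Stranded mRNA libraries were sequenced in pairs. The submitters' processing notes name FastQC 0.11.7, Trim Galore 0.6.5, STAR 2.6.1a, featureCounts (Subread 2.0.1), limma and mm10, and the annotation and strand setting used for counting are not given in the sources used here. The authors deposited log2 CPM values after quantile normalization and voom, not counts.

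The most common value, -5.15, was read as 0.5 reads, the amount voom adds, which gives a common library of 17.8 M reads; depth per sample cannot be read from such values, and limits in reads cover counting error only. Genes above the value of 10 reads in at least 3 samples were tested (11233 of 23420) with limma 3.58.1 in R 4.3.3 (lmFit, eBayes with a trend), with Benjamini-Hochberg adjustment over all of them and calls at an FDR under 0.05. The procedure was tested on simulated data. The labels give 3 mice for the 6 samples but do not tie numbers to mice. The printed p-values are from the fit without pairing, which takes the 6 samples as separate although mice were shared. They therefore measure the spread between these samples.

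The deposited values carry a shift by replicate number: 1319 to 1509 values per sample lay below the level of no reads, and 1481 genes had equal values, within 0.0005, in all 3 same-numbered pairs but not between numbers, against 1 to 386 with numbers crossed. Fold changes over all 6 samples are not touched by such a shift, but the spread between replicates is. With 1 sample left out the groups hold unlike numbers, so the shift can also enter those fold changes and calls. Deviations from group means correlated at 0.435, 0.224 and 0.300 between same-numbered samples and from -0.281 to 0.0279 between others. The numbers were therefore also used as a block, though the shift may give the correlations by itself.

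The enzymes and the gene lists were chosen with earlier results of these data known. Named by rule were the 9 enzymes, the other TCA cycle enzymes in the list as used here (1 gene was taken out of it and is not reported here), and from each other list the 2 highest and 2 lowest called genes. Got2, Idh1, Slc25a12, Sirt3, Acat1 and Acat2 were added after their values were seen. Pdk1, Pdk3, Acaca, Fasn and Hmgcs1 were added in the same way, and their values under alternatives are not given. Positions and lengths are from GENCODE M21 (GRCm38), and levels per length use the union of exons. Exact matches to motifs were searched in RefSeq promoters, and shared sequence was counted in runs of 75 bases. Summed levels of cell type markers were given per group. In all, 14 alternatives covered the filter, the scale, the block, the variance trend, centring and each sample left out.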

Additional observations from a re-analysis of the deposited data

How the results depend on the processing

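Alternatives of the filter, the block and the variance trend cannot change a difference of group means, so their log2FC values were fixed in advance. Of 125 values of the log2FC of the 9 enzymes under 14 alternatives, these included, 124 stayed within 1 SD between replicates. The other was Acss2, at -0.43 on the log2(CPM + 1) scale, which compresses low values. For Acss2 that limit was wide (SD 1.13 with CpG), and its log2FC ranged from -1.77 to -0.70 with 1 sample left out. The sign changed in 3 values of enzymes that were not called, to 0.01 in Acly without CpG replicate 2, and to 0.01 and 0.05 in Fh1 without CpG replicate 1 and without unstimulated replicate 3. The count of 3 enzymes higher with CpG was the same under every alternative, replicate block included (3 higher and 3 lower). The count of 3 lower ranged from 1 to 3 when 1 sample was left out, and was 2 without the filter, with the filter in all 6 samples (which Acss2 did not pass) and without the variance trend. In the list for lipoylation and succinate dehydrogenase assembly, the 1 gene called lower became 0 without the filter, 2 with the replicate block and 1 to 2 with 1 sample left out. In the fatty acid oxidation list the 3 genes called higher ranged from 1 to 3 with 1 sample left out. An alternative chosen after seeing the data left out replicate 2 of both groups, in which red cell transcripts were highest, and gave 2 and 1 for these lists. The cause was not tested. The other 300 counts stayed within 1.5 times. Among 641 values of 46 of the list genes named in the text, 615 kept direction and call. Another 24 in 9 genes (Idh3b, Idh3g, Idh2, Dlst, Dld, Sdhaf1, Etfb, Got2 and Sirt3) were no longer called. The last 2, of Acat1, which was not called, changed sign (-0.0395 to 0.008 with 1 sample left out). The log2(CPM + 1) scale made 5 called log2FC values over 1.5 times smaller, those of Slc16a7 (-0.83), Ppargc1a (-1.62), Pdk2 (-2.18), Pank1 (-0.56) and Acacb (1.18). The replicate block ended none of these calls and gave 4390 genes higher and 4287 lower over all genes. The values of Acss2 corresponded to only 2.10 to 16.2 reads a sample, and the reason for this low level was not tested.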
